A study of Mus musculus with 18 samples.

Results

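The respiratory chain and ATP synthase of the mitochondrial inner membrane turn fuel into ATP. Complex I and complex II feed electrons from NADH and succinate into the chain, complex III and complex IV pass them to oxygen, and ATP synthase uses the proton gradient that complexes I, III and IV build. The kidney reabsorbs most of its filtrate by active transport, so its tubules, the proximal tubule above all, are densely packed with mitochondria. Most subunits are encoded in the nucleus and a few in the mitochondrial genome.

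The nuclear-encoded subunit genes were taken by name: every row whose gene name began with Nduf (classes a, b, c, s and v), Sdha to Sdhd, Uqcr, Cox4 to Cox8 or Atp5, leaving out the 6 names that end in -ps (pseudogene names with a further number remained). The rule found 92 of the 32675 genes in the table and used no measured value. By the GENCODE M21 annotation, 82 of them are protein-coding (35 of complex I, 4 of complex II, 8 of complex III, 18 of complex IV with Ndufa4 and Ndufa4l2, and 17 of ATP synthase). The other 10 are processed pseudogenes, that is, copies of a subunit mRNA in the genome. Cox7b2 and Cox8c had no row.

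RNA was sequenced from the right kidneys of 18 male C57BL/6 mice, given as 6 weeks old, in 3 groups of 6. Ctrl mice were handled daily. PBS and FLX mice went through chronic social defeat stress, in which an aggressive CD-1 resident defeated them for 10 min a day over 2 weeks, and received daily intraperitoneal PBS or 10 mg/kg of the antidepressant fluoxetine, given during the stress. No group received fluoxetine without stress, and no group received PBS without stress, so stress and injection cannot be told apart in the comparison of PBS with Ctrl. The study left out 1 PBS mouse, not named in the labels, for excessive expression of inflammatory genes. PBS 6 was left out here because it held 22.1 FPKM of S100a8, a neutrophil gene, against 1.82 to 7.65 in the other PBS mice, and 49.2 FPKM of Lcn2, a tubule injury gene, against 0.985 to 4.42. Results with all 6 PBS mice stand beside the main ones for each call they end.

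Depth ran from 48928823 to 79061296 counts per mouse, and FLX 3 to 6 had the lowest totals, none above 52073640. The markers of the kidney were present, with the 10 proximal tubule markers summing to 995 FPKM in PBS 6 and to between 1580 and 1896 in the other 17 mice. Some markers of other cells differed in level between the groups: the 6 neutrophil markers summed to 1.03 to 3.06 FPKM in Ctrl, 6.81 to 25.4 in PBS 1 to 5 and 0.166 to 4.95 in FLX, and the 3 distal convoluted tubule markers to 107 to 145, 146 to 251 and 121 to 205. The 6 markers of smooth muscle and pericytes summed to 30.4 to 55.2 FPKM in Ctrl, 49.8 to 84.1 in PBS 1 to 5 and 49.04 to 108 in FLX, with 1 of them called higher in PBS and in FLX than in Ctrl. Their part in the results was not tested. One control stood apart: the members took 2.07% of the counts of Ctrl 3, against 2.98% to 3.31% in the other Ctrl mice, 2.64% to 3.32% in PBS 1 to 5 and 2.45% to 2.98% in FLX. Counts of calls are therefore also given without Ctrl 3. That choice rests on the members' own low values in this mouse, so those counts are descriptions and not independent tests.

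Expression of the members was high. Of the 82 coding members, 77 averaged at least 10 FPKM in Ctrl and 55 at least 100 FPKM, and 22 members stood among the 200 genes with the highest Ctrl mean. The highest was Cox4i1, the common form of a regulatory complex IV subunit, at 802 ± 194 FPKM (SD, n = 6). Cox8a followed at 764 ± 126, Cox6a1 at 683 ± 103, Atp5b at 658 ± 51.8 and Uqcr10 at 632 ± 166 FPKM. Neighbours in this order differed by less than the SD of either. The highest member of complex I was Ndufb9 (317 ± 70.6 FPKM) and the lowest Ndufb2 (12.3 ± 2.73). In complex II, Sdhd (221 ± 21.3), a membrane anchor, was highest and Sdhc (98.1 ± 11.9), the other anchor, was lowest. In complex III, Uqcrc1 (123 ± 20.6), a core protein, was lowest, and in ATP synthase Atp5g1 (44.9 ± 8.15), 1 of 3 genes for the c-ring subunit. FPKM is scaled by length, and Ndufb2, Sdhc and Atp5g1 have long annotated transcripts (4371, 3171 and 4715 bases). The median coding member has 787 bases. The part of annotated length in these ranks was not tested. The lowest coding member of all was Cox4i2, at 0.846 ± 0.228 FPKM.

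RefSeq promoter windows on GRCm38.p6, from 250 bases before to 50 bases after the start, were found for 67 of the 82 coding members. The palindromic motif of the NRF1 type, which is bound by the nuclear respiratory factor of that name, stood on either strand in 16 of 67 (23.9%), against 4.82% of 27025 genes with a window. A motif of the ETS type, CCGGAAG, bound by factors such as GABPA, also stood in 16 of 67 (23.9%), against 9.14% of all. The median member window held 19 CpG dinucleotides and the median window of all genes held 7. A match describes letters and is no evidence of binding. Upstream sequences of Ndufa5, a peripheral complex I subunit, and Cox6a1, a complex IV subunit, are shown because both carry the NRF1-type motif and both were among the members with the lowest p in FLX against PBS. Of the other members called in that comparison without Ctrl 3, Ndufa3 holds neither motif and Uqcrb has no window. A link between motif and fold change was not tested. Capitals mark the motifs. Ndufa5 has 1 of the NRF1 type, and Cox6a1 has 2 of that type and, nearest the start, 1 of the ETS type on the opposite strand. The windows are chr6:24527691-24527940 and chr5:115348959-115349208, both on the minus strand.
Ndufa5: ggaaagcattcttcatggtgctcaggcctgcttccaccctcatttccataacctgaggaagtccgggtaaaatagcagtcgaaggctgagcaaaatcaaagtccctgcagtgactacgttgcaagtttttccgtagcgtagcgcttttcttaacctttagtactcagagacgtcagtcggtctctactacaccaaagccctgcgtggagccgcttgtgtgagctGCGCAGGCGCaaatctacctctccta
Cox6a1: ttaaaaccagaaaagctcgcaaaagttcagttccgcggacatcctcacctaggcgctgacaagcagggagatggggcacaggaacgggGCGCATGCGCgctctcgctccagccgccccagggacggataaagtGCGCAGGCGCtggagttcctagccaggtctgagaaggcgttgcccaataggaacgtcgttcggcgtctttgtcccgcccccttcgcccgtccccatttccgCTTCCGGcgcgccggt

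Summed over its coding members, complex I stood at 4985, 5099.9, 2730.4, 4395, 4352 and 4467 FPKM in Ctrl 1 to 6. It stood at 4453, 4929, 4578, 3715 and 4116 in PBS 1 to 5 and at 4029, 4031, 3909.6, 3745, 4186 and 3259.9 in FLX 1 to 6. All 6 FLX mice lay below the 5 Ctrl mice other than Ctrl 3, while PBS overlapped both groups. Complex III followed the same order, at 1322 FPKM in Ctrl 3, 2162 to 2490.5 in the other Ctrl mice, 1775 to 2360.2 in PBS 1 to 5 and 1537 to 1954 in FLX. So did complex IV, at 3019 FPKM in Ctrl 3 and 4601 to 5317 in the other Ctrl mice. For that complex, PBS 1 to 5 were at 4052 to 5304 and FLX at 3546 to 4493. In ATP synthase, FLX 5 (3641 FPKM) lay above Ctrl 4 (3596) and Ctrl 5 (3577). Complex II did not follow the order either: its sums ran from 511 to 679 FPKM in Ctrl, 604 to 698 in PBS and 591 to 716 in FLX.

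**Figure D1:**
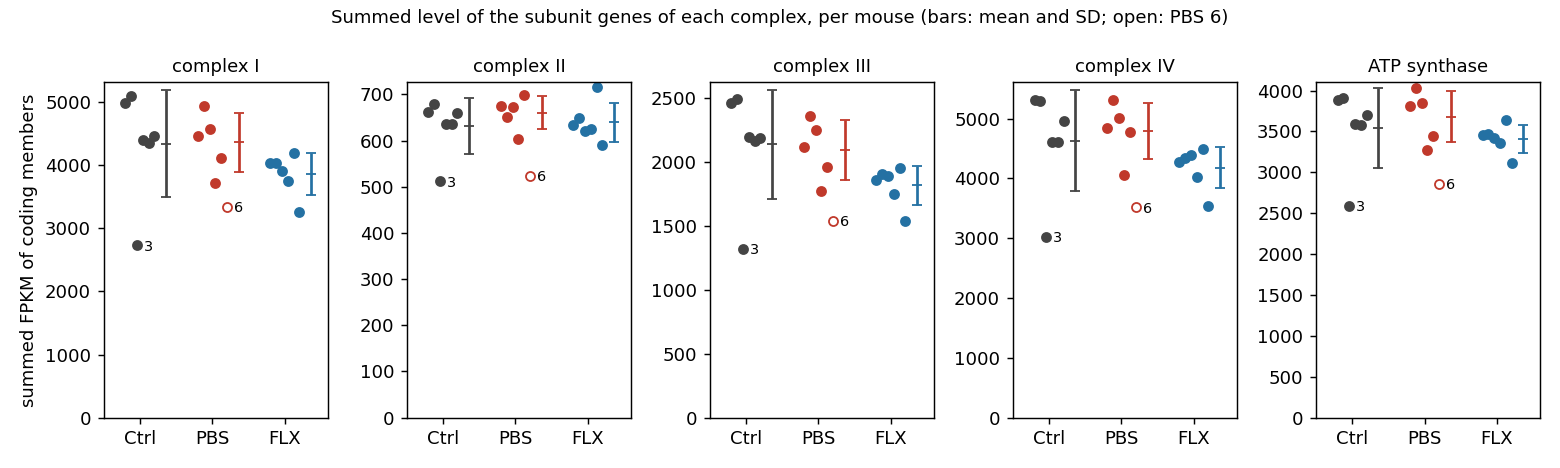
Summed FPKM (vertical axis, from 0) of the coding members of each complex in every mouse of the Ctrl, PBS and FLX groups, with the mean and SD beside the points (n = 6, 5 and 6). Ctrl 3 and PBS 6 (open, outside the mean) are numbered; Ctrl 3 is the lowest Ctrl mouse in all 5 panels, and for complex I the FLX mice sit between 3259.9 and 4186 FPKM.

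PBS against Ctrl compared social defeat together with daily injection against handling, and no member passed. In edgeR's quasi-likelihood test across 20251 genes, 0 of the 89 members tested had an adjusted p under 0.05, against 3.81% of all genes, and 7 had an unadjusted p under 0.05 (17.9% of all genes). DESeq2 called 1, Atp5a1, the alpha subunit of the F1 part of ATP synthase. The median log2 fold change over the members was 0.05, beside -0.01 over all genes, with 57 members above 0 and 32 below (51.1% of all genes below). Without Ctrl 3, 1 member was lower, Ndufa4, a complex IV subunit once assigned to complex I (3.71% of all genes lower), and the median was -0.05. The highest fold changes were those of restricted complex IV forms, Cox8b (3.08), Cox7a1 (0.78) and Cox4i2 (0.71), and the lowest those of the pseudogenes Ndufs6b (-0.48), Ndufb4c (-0.31) and Atp5l-ps2 (-0.30), none passing. The 3 members not tested, for low counts, were the pseudogenes Ndufa11b, Uqcrh-ps1 and Uqcrh-ps2.

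The clearest separation of PBS from Ctrl was in Atp5a1. It stood at 495, 492, 502, 507, 521 and 527 FPKM in Ctrl 1 to 6 and at 601, 555, 561, 544 and 608 in PBS 1 to 5. Every PBS mouse was above every Ctrl mouse, although PBS 6, at 510.3, was not. The log2 fold change was 0.18 ± 0.06 (SE), with an adjusted p of 0.115 in edgeR. The exact two-sided permutation test of log2(FPKM + 0.1) gave p = 0.00216, the smallest it can give for these group sizes. That p restates the lack of overlap and is no separate support. Cox4i2, a complex IV form known from lung and from oxygen-sensing cells, was the other member whose FPKM did not overlap (0.617 to 1.12 in Ctrl, 1.15 to 1.58 in PBS 1 to 5), and PBS 6 was at 0.461. Such separation upward was seen in 2 members and in 1.77% of all genes. For Sdha, the flavoprotein of complex II, it was 0.24 ± 0.09 (adjusted p = 0.181, edgeR), and for Cox5a, a complex IV subunit, 0.21 ± 0.09 (adjusted p = 0.224).

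FLX against PBS compared 2 groups that both went through stress, and most members had small fold changes in 1 direction. Most members varied together from mouse to mouse (median r 0.93), and their fold changes went with length, both given below. Members counted here are therefore not independent of each other. Of the 89 members, 87 had a log2 fold change below 0, where 50.5% of all genes did, and the median was -0.26, beside -0.00267 over all genes. An unadjusted p under 0.05 with a lower level was reached by 26 members, 29.2%, and by 5.38% of all genes. Only Uqcrb, a small subunit of complex III that binds ubiquinone, passed the adjusted threshold, 1 of 89 beside 0.726% of all genes in either direction and 0.420% downward. The medians were -0.25 for complex I, -0.13 for complex II, -0.31 for complex III, -0.28 for complex IV and -0.24 for ATP synthase. With all 6 PBS mice, no member passed (0.557% of all genes did), 9 had an unadjusted p under 0.05 (12.2% of all genes) and the median was -0.19.

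Uqcrb (13:66900617-66905378, minus strand, GRCm38) stood at 226, 227, 213, 223 and 195 FPKM in PBS 1 to 5 and at 166, 189.9, 175, 187, 205 and 166 in FLX 1 to 6. The groups overlapped through PBS 5 and FLX 5, and Ctrl, at 178 to 204, lay within the range of FLX. Its log2 fold change was -0.35 ± 0.08 (adjusted p = 0.0449, edgeR), and the exact permutation test gave p = 0.0108. The call was lost with all 6 PBS mice (adjusted p = 0.178), PBS 6 being at 165 FPKM, and when any single mouse other than Ctrl 3 or PBS 5 was left out (0 members called). It was also lost with every other scaling tried, with no filter, with limma, with the 2 groups alone, with the replicate block and with the length trend removed, and of 33 alternatives it held in 3 (DESeq2, without Ctrl 3 and without PBS 5). Without Ctrl 3, 4 members were lower (Uqcrb, Ndufa5, Ndufa3 and Cox6a1, beside 0.727% of all genes lower). With all 6 PBS mice kept in that fit, only Ndufa5 was called. Ndufa5 was the single member whose FLX values all lay below its PBS values, where 0.469% of all genes did. It stood at 107, 117, 91.2, 91.5 and 92.0 FPKM in PBS 1 to 5 and at 78.5, 82.8, 70.4, 82.0, 88.2 and 72.0 in FLX. Its log2 fold change was -0.43 ± 0.12 (adjusted p = 0.117, edgeR). For Cox6a1 the value was -0.33 ± 0.12 on the log2 scale (adjusted p = 0.244), for Ndufb3 -0.31 and for Ndufa3 -0.40, none passing. The lowest fold changes, Cox8b (-0.84), Cox7a1 (-0.53) and Ndufa12 (-0.52), had adjusted p-values of 0.892, 0.728 and 0.434. The highest were Atp5l-ps2 (0.16), Cox6a2 (0.07) and Ndufs1 (-0.03), with adjusted p-values of 0.966, 0.978 and 0.942.

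**Figure D2:**
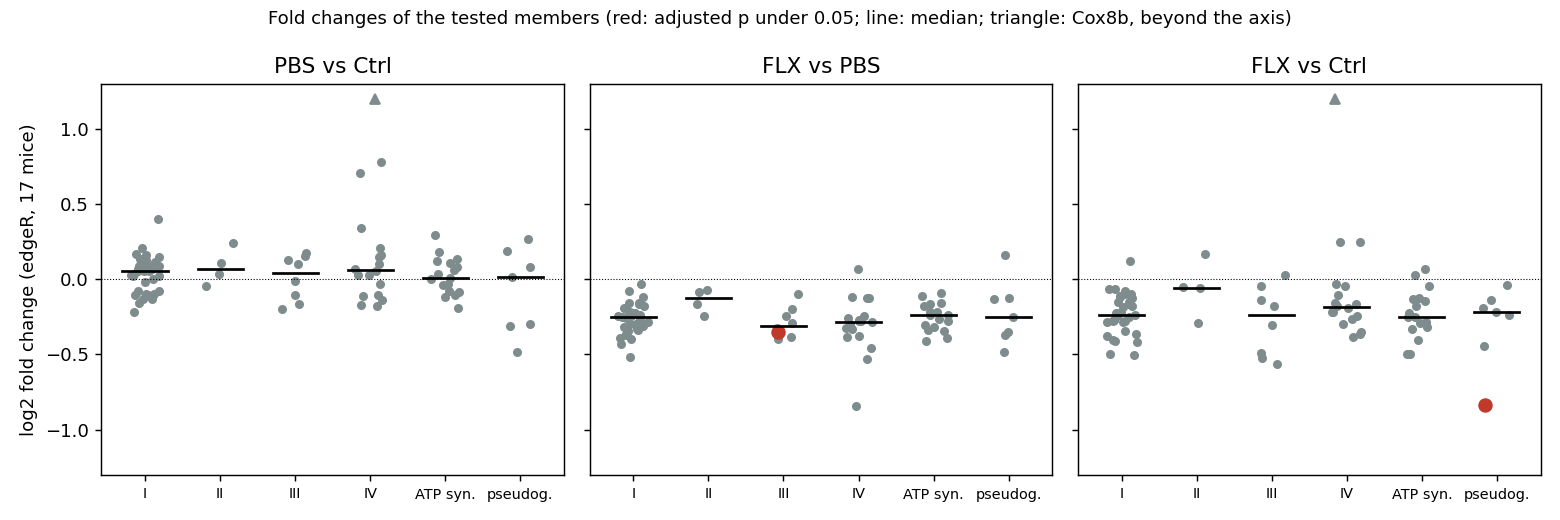
Log2 fold change (vertical axis) of each tested member in the 3 comparisons, by complex, with the median as a line, calls at an adjusted p under 0.05 in red and Cox8b, where beyond the axis, as a triangle. Points centre near 0 for PBS against Ctrl and lie below 0 for 87 of 89 members in FLX against PBS, with Uqcrb and Ndufs6b the 2 red points.

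FLX against Ctrl compared treated, stressed mice with unstressed mice and shares its groups with the comparisons above. Here 81 of the 89 members had a log2 fold change below 0 (51.2% of all genes), with a median of -0.22, beside -0.01 over all genes. An unadjusted p under 0.05 with a lower level was found in 26 members, 29.2%, and in 10.2% of all genes. The adjusted test called 1 member, where 3.67% of all genes passed in either direction and 1.59% downward: Ndufs6b (7:81161397-81161744), a processed pseudogene of the complex I subunit gene Ndufs6. It stood at 4.81, 4.09, 4.29, 4.48, 6.08 and 5.75 FPKM in Ctrl and at 3.48, 3.12, 2.88, 2.10, 2.54 and 3.33 in FLX, with no overlap (lower without overlap in 0.731% of all genes). The log2 fold change was -0.83 ± 0.22 (adjusted p = 0.0405, edgeR). The exact permutation test gave p = 0.00216, which restates the lack of overlap. The fold change of Ndufs6b is uncertain, because reads of a copy and its parent can be exchanged. The longest run shared without a mismatch with Ndufs6 transcripts is 82 bases, and 25.4% of the 50-base windows of Ndufs6b occur there unchanged. Ndufb4c, a full-length copy with 100% of such windows in Ndufb4, and Cox6c2 (52.7% in Cox6c) are uncertain for the same reason. The call was lost with all 6 PBS mice in the fit (adjusted p = 0.0551) and when any 1 FLX mouse, or any 1 Ctrl mouse other than Ctrl 3, was left out (0 members called).

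Without Ctrl 3, FLX against Ctrl changed in number but not in direction: 56 of 89 members passed, all lower, where 15.4% of all genes passed in either direction and 7.67% downward. They were 24 of 35 in complex I, 1 of 4 in complex II, 5 of 8 in complex III, 11 of 18 in complex IV, 13 of 17 in ATP synthase and 2 pseudogenes. The mouse left out is the control with the lowest member levels, so the count follows in part from that choice. It was 35 with PBS 6 also kept, a fit whose share over all genes is not given here. With PBS 6 left out and the length trend also removed, it was 17 (4.53% of all genes lower). Ndufs6, an accessory subunit of complex I, stood at 174, 177, 86.2, 157, 159.8 and 151 FPKM in Ctrl 1 to 6 and at 128, 127, 121, 120.2, 126 and 102 in FLX. All FLX mice lay below each Ctrl mouse but Ctrl 3. Its adjusted p went from 0.114 to 0.00183 when Ctrl 3 was left out. Uqcr10 and Uqcr11, small subunits of complex III, went from log2 fold changes of -0.52 and -0.56 (adjusted p 0.108 and 0.129) to adjusted p-values of 0.003 and 0.00378. Cox4i1 went from -0.39 (0.181) to an adjusted p of 0.00644. No technical record in the labels marks Ctrl 3, and it remained in the main comparison.

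The 18 core and catalytic subunits, which carry the redox centres or the nucleotide sites or stand beside them (among them Ndufv1, Ndufs1, Sdha, Sdhb, Uqcrfs1 and Atp5b), had median log2 fold changes of 0.10, -0.18 and -0.06 in the 3 comparisons, beside 0.05, -0.26 and -0.22 over all members. Fold change rose with coding length over the members, as given below, and the part of length in this difference was not tested. In PBS against Ctrl, 17 of 18 were above 0, from -0.05 for Sdhb, the iron-sulphur protein of complex II, to 0.24 for Sdha. In FLX against PBS all 18 were below 0, from -0.29 for Ndufs8 to -0.03 for Ndufs1, both iron-sulphur subunits of complex I. In FLX against Ctrl 13 of 18 were below 0, from -0.29 for Sdhb to 0.17 for Sdha. None passed in any of these. An unadjusted p under 0.05 was found in 3, 4 and 0 of the 18, beside 17.9%, 11.1% and 20.4% of all genes, and 5 passed in FLX against Ctrl without Ctrl 3, beside 15.4% of all genes.

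In Ctrl 3 the members were low by unequal amounts. Of the 82 coding members, 74 had their lowest Ctrl value there, at a median of 61.4% of the mean of the other 5 Ctrl mice. Uqcr11 was at 39.3%, Uqcr10 at 45.4% and Cox4i1 at 51.1% of that mean. Atp5a1 was at 98.8%, and Ndufs1, the large iron-sulphur subunit of complex I, Sdha and Cox4i2 were above it, at 122%, 123% and 112%. Ndufs1 and Sdha are long and Uqcr11 and Uqcr10 short, and length went with the fold changes too.

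Across the 82 coding members, log2 fold change rose with coding length, with a Spearman rho of 0.62 in FLX against PBS and 0.53 in FLX against Ctrl, a description over genes of the same libraries. With transcript length, on which the classes and the trend below rest, rho was 0.53 and 0.35. In FLX against PBS, the median was -0.34 for the 21 members with a transcript under 600 bases, -0.27 for the 30 from 600 to below 1000 bases and -0.22 for the 31 longer ones. Other coding genes in the same length classes had medians of -0.14, -0.12 and 0.00444. In FLX against Ctrl the members' medians were -0.31, -0.22 and -0.13, and those of other genes -0.23, -0.20 and 0.02. The 4 members with the longest coding sequence were above 0 in FLX against Ctrl, Sdha at 0.17, Ndufs1 at 0.12, Atp5a1 at 0.07 and Atp5b at 0.03, none passing. With the trend of each mouse on transcript length removed, 3 members were called higher in PBS than in Ctrl (Cox5a, Ndufa5 and Cox6a1; 2.95% of all genes higher), Ndufa5 alone was lower in FLX than in PBS (0.583% of all genes lower), and no member passed in FLX against Ctrl (4.01% of all genes did), whose median became -0.06. After this step, rho with transcript length was 0.377 in FLX against PBS and 0.105 in FLX against Ctrl. With coding length it was still 0.53 and 0.42, so the relation with coding length was not removed. The part of RNA fragment length or capture in this relation was not tested.

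**Figure D3:**
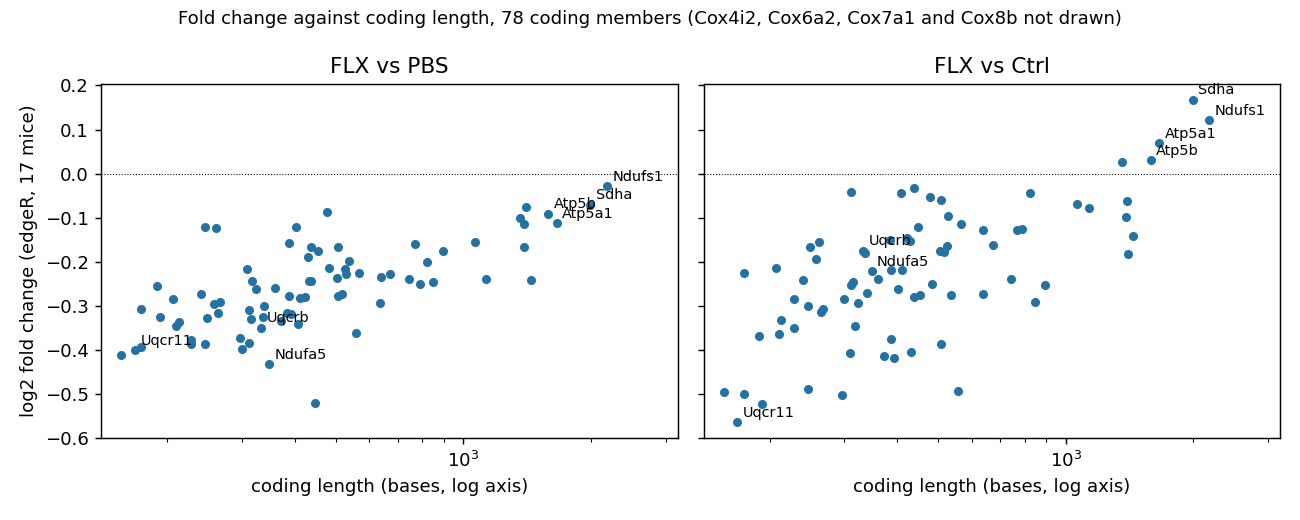
Log2 fold change (vertical axis) against coding length in bases (horizontal, log axis) for 78 coding members in FLX against PBS and FLX against Ctrl, 1 point per gene. Cox4i2, Cox6a2, Cox7a1 and Cox8b are not drawn. Uqcr11 lies at -0.40 and -0.56, and the long Sdha at -0.07 and 0.17.

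Most members varied together from mouse to mouse. Against the median of the other members over 17 mice, 68 of 89 had a Pearson r above 0.8 and the median r was 0.93; these mice share the libraries and the length trend, so no p is given. Ndufs1 (-0.41), Sdha (-0.32) and Cox8b (-0.03) were the members below 0. Ribosomal protein genes were low in the same control, while the mitochondrial-genome genes (0.42) and the 13 regulators of mitochondrial gene expression (0.14) were high in it. As a median deviation from the 18-mouse mean in log2 CPM, the members were at -0.63 in Ctrl 3, 0.08 to 0.29 in the other Ctrl mice, -0.03 to 0.31 in PBS 1 to 5, -0.33 in PBS 6 and -0.38 to -0.02 in FLX. The 90 cytosolic ribosomal protein genes, short and abundant like the members, were at -0.54 in Ctrl 3, 0.18 to 0.36, -0.15 to 0.16, 0.16 and -0.40 to -0.02 in the same order, so PBS 6 was low for the members and not for these.

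**Figure D4:**
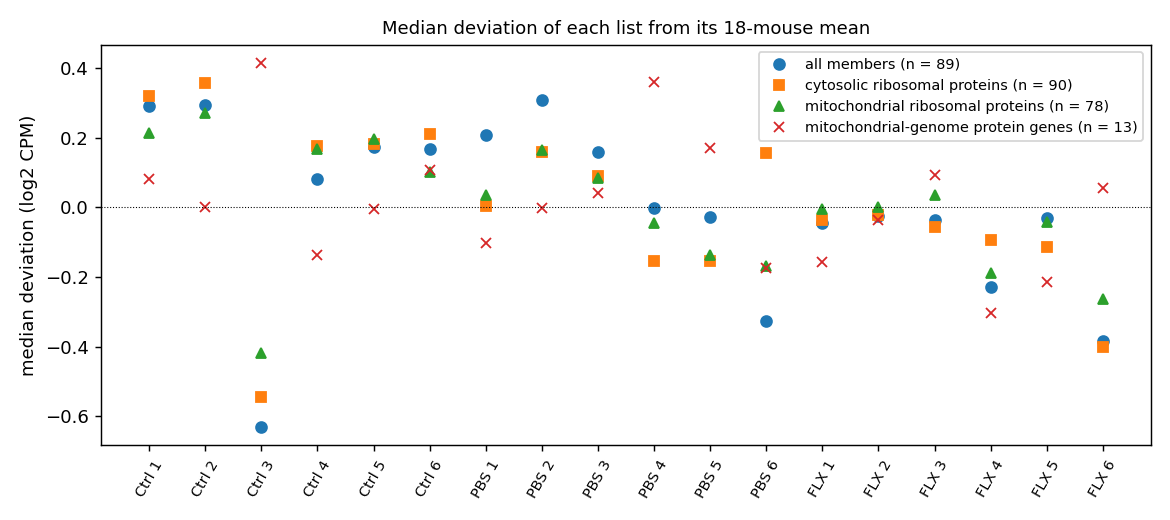
Median deviation (log2 CPM, vertical axis) from the 18-mouse mean of the members, the cytosolic and mitochondrial ribosomal protein genes and the protein genes of the mitochondrial genome, 1 set of symbols per mouse. In Ctrl 3 the first 3 lists are lowest, at -0.63, -0.54 and -0.42, and the mitochondrial genome genes are highest, at 0.42.

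Other genes of the pathway were described by counts, from lists given in full by their numbers. The 13 mitochondrial-genome protein genes, which supply the remaining subunits, were all below 0 in FLX against PBS (median -0.20, 0 called), and in FLX against Ctrl mt-Nd6 fell by 0.43 on the log2 scale (adjusted p = 0.0132, edgeR). Of 13 citric acid cycle genes, all were above 0 in PBS against Ctrl (median 0.23) and those that rose included Idh3a, of isocitrate dehydrogenase (0.48 ± 0.13, adjusted p = 0.0409, edgeR), and Mdh2, malate dehydrogenase (0.30, 0.0423). With all 6 PBS mice these were at adjusted p-values of 0.0692 and 0.121. Of 46 assembly factors, Cox10, which makes the haem A precursor for complex IV, rose in PBS (0.40, adjusted p = 0.0252, edgeR) and FLX (0.34, 0.0443) against Ctrl. The latter call was lost with all 6 PBS mice (0.056). Pet100, a complex IV factor, fell in FLX against Ctrl (-0.82, 0.0362). Over all genes, 3.81% passed in PBS against Ctrl and 3.67% in FLX against Ctrl, so these few calls among 46 genes are near that share. None of the 13 regulators, among them Ppargc1a, Nrf1, Gabpa and Tfam, passed in any comparison with all 6 Ctrl mice. In each, 2 or 3 of them had an unadjusted p under 0.05, beside 17.9%, 11.1% and 20.4% of all genes. Without Ctrl 3, Gabpa, an ETS factor (0.18 with Ctrl 3, adjusted p 0.364 with and 0.0163 without it), and Pprc1, a coactivator (0.51, 0.119 and 0.0362), were called higher in FLX than in Ctrl, and Pprc1 (0.59, 0.091 and 0.0381) in PBS than in Ctrl. In that fit, 7.75% of all genes were called higher in FLX than in Ctrl and 4.56% in PBS than in Ctrl. None of the 9 electron carriers and linked genes passed either (0, 0 and 2 with an unadjusted p under 0.05), nor was a mitochondrial ribosomal protein gene called other than 1 of 78 lower in FLX than in Ctrl, where 2 of 90 cytosolic ribosomal protein genes were also lower. The calls of both ribosomal lists were lost with all 6 PBS mice. Without Ctrl 3, the genes lower in FLX than in Ctrl numbered 5 of 9 electron carriers, 15 of 45 assembly factors, 35 of 78 mitochondrial and 71 of 90 cytosolic ribosomal protein genes, beside 7.67% of all genes.

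Complex IV has subunits that exist in a common form and in forms restricted to heart, skeletal muscle, brown fat or testis. Cox8b, the heart, muscle and brown fat form of Cox8, varied most. It stood at 13.8, 0.19, 1.09, 1.65, 0 and 23.7 FPKM in Ctrl, at 27.9, 1.23, 19.6, 1.16 and 242 in PBS 1 to 5 and at 7.69, 59.6, 1.11, 9.15, 122 and 1.74 in FLX. PBS 5 and FLX 5 were highest, and the groups overlapped. As a share of Cox8a plus Cox8b it reached 25.2% in PBS 5 and 14.9% in FLX 5, with Ctrl between 0 and 2.81%. Its log2 fold change was 3.08 ± 1.43 in PBS against Ctrl (adjusted p = 0.265, edgeR), and 0.89 without PBS 5.

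The same mice held brown fat transcripts. Ucp1, the uncoupling protein that marks brown fat, was at 214 FPKM in PBS 5, 65.0 in FLX 2 and 54.6 in FLX 5, and between 0 and 20.8 in the other 15 mice. Of the 7 brown fat markers, Cidea, Elovl3, Dio2 and Otop1 were highest in PBS 5 and FLX 5, and 2 were not. Kng2 was lowest of PBS 1 to 5 in PBS 5 (81.7 FPKM) and lowest of FLX in FLX 5 (87.3). Prdm16 was at 1.13 in PBS 5 and 1.16 in FLX 5, beside 0.921 to 1.64 in Ctrl. Summed over the 8 markers of white and brown fat, PBS 5 was at 539.9 FPKM and FLX 5 at 536, against 11.7 to 129 elsewhere. Cox7a1, the restricted form of Cox7a, was at 135 FPKM in PBS 5 and 94.4 in FLX 5 and at 11.1 to 54.6 in the others. The 9 skeletal muscle markers in the table summed to 1.62 to 36.8 FPKM, nearly all of it Pvalb (1.51 to 36.3 FPKM), a calcium buffer also expressed in the distal convoluted tubule. Ckm, the muscle creatine kinase, was at 0.15 FPKM or less in every mouse, Myl1, a fast myosin light chain, was highest in PBS 5 (0.876) and FLX 5 (0.902), and the 4 heart markers summed to 0.643 to 2.52. The part of adherent fat in the levels of Cox8b and Cox7a1 was not tested.

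**Figure D5:**
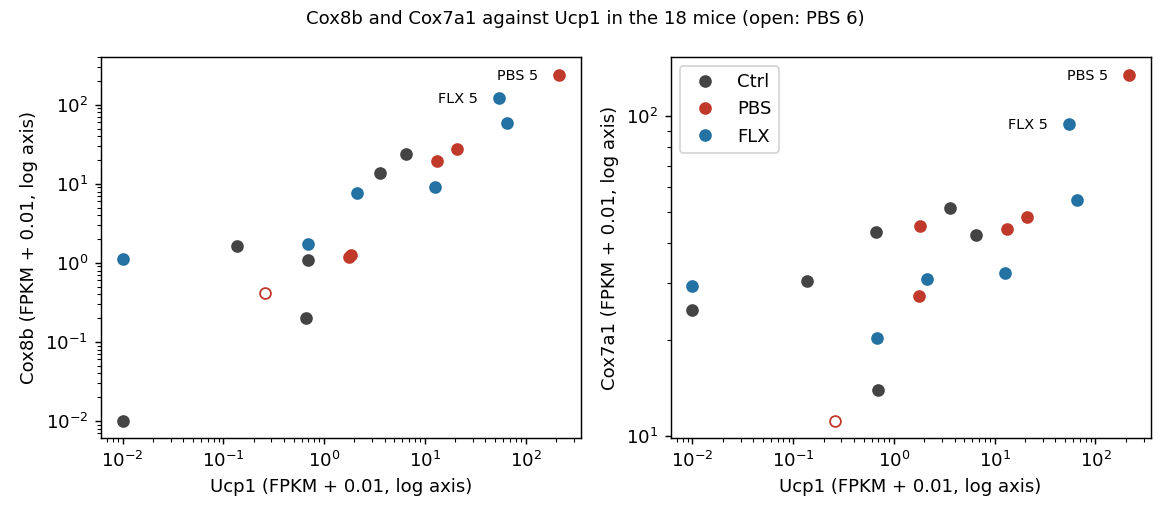
Cox8b and Cox7a1 (vertical axes) against Ucp1 (horizontal axis), each as FPKM + 0.01 on log axes, 1 point per mouse, coloured by group, PBS 6 open. PBS 5 (242 FPKM of Cox8b) and FLX 5 (122 FPKM) have the highest values in both panels.

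The upstream 250 bases of Cox8a and Cox8b, with every CpG dinucleotide in capitals, show how the common and the restricted form differ in sequence: 11 CpGs against 1. They lie on the minus strands of chr19:7217617-7217866 and chr7:140900447-140900696 (GRCm38.p6, RefSeq).
Cox8a: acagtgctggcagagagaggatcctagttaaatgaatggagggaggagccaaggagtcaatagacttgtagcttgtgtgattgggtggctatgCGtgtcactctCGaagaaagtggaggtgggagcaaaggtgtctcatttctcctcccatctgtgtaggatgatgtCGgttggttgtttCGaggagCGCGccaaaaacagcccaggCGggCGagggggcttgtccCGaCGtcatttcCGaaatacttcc
Cox8b: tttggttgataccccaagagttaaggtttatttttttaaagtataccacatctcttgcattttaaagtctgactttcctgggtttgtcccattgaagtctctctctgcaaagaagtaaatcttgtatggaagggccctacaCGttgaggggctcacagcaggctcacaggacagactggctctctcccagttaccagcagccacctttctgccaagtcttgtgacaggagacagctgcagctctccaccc

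The other restricted forms were low. Cox4i2 made up at most 0.22% of Cox4i1 plus Cox4i2 in any mouse, Cox6a2 at most 0.293% of Cox6a1 plus Cox6a2, and Cox6b2, the testis form of Cox6b, 0.65% to 1.21% of its pair in 17 mice. The 3 genes for the c-ring of ATP synthase, which encode the same mature protein, differed in share: Atp5g3 supplied 65.7% ± 1.49 of their summed FPKM in Ctrl, 67.3% ± 1.98 in PBS (n = 5) and 66.5% ± 1.32 in FLX. Atp5g2 supplied 24.3% ± 0.715 in Ctrl, 21.2% ± 2.23 in PBS and 22.5% ± 0.75 in FLX. Below every Ctrl mouse were 4 of the 5 PBS mice and all FLX mice but FLX 3. Atp5g1 supplied the rest, 10.02%, 11.5% and 11.0% on average. These are shares of FPKM, which is scaled by length. The annotated transcript of Atp5g1 has 4715 bases, beside 731 for Atp5g2 and 723 for Atp5g3.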

How the data were processed

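Poly(A) RNA was sequenced as paired 150-base reads. Per the paper's methods, the authors used fastp for trimming, HISAT-3N for mapping (GRCm38) and StringTie for assembly. The submitters' processing notes also name cutadapt 1.9, HISAT2 2.0.4 and StringTie 1.3.4d. The deposited table holds, per gene and mouse, FPKM (fragments normalized by the authors for gene length and library size) and whole-number estimated counts, with no tool named in the sources used here. Whether counting used strand is not stated, so overlapping genes are uncertain.

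Estimated counts were tested with edgeR 4.0.16 (filterByExpr, TMM scaling, quasi-likelihood F-test) in 1 model over 17 mice, with Benjamini-Hochberg adjustment over 20251 genes and a threshold of 0.05. FPKM gave levels and exact two-sided permutation tests on log2(FPKM + 0.1). Each mouse was 1 sample; totals were 48928823 to 79061296 counts. The labels do not say whether cages or dates differed. Alternatives were run with DESeq2 1.42.0 and limma 3.58.1. Transcript length was available for 99.8% of genes tested; the length trend was a lowess fit (span 0.3). The fit was tested on simulated data.

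Named were members that passed, the 3 largest changes each way per comparison, the highest and lowest member per complex, the restricted forms with their partners and the catalytic core. Ndufs6, Ndufa4, Ndufa3, Ndufa5 and Ndufb3 were chosen after their values were seen. The members and lists were chosen with earlier results of these data known. Replicate numbers did not pair the mice. Some single genes are not reported here.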

Additional observations from a re-analysis of the deposited data

Results flagged for a closer look

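In 75 sets of values (shares of counts, summed FPKM per complex and single members, each within a group), a mouse was set against the others of its group by the size of its gap, a rule that chance meets in about 1 of 20. It was met 18 times, 12 of them by Ctrl 3. There Ctrl 3 was low for the members' share of counts (2.07%), for the summed FPKM of complex I (2730.4), complex II (511), complex III (1322), complex IV (3019) and ATP synthase (2588), and for the FPKM of Ndufs6 (86.2), Ndufa5 (60.1), Cox6a1 (476), Atp5b (553) and Uqcr10 (316). Ndufs1 was instead high in it (30.2 FPKM). The 75 sets are not independent, because the sums contain the single members and most members varied together. The count of 18 can therefore not be compared with the rate of 1 in 20.

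PBS 5 was far above the other PBS mice in Cox8b (242 FPKM) and Cox7a1 (135 FPKM), beside its Ucp1 level of 214 FPKM. PBS 4 was low in Atp5b (616 FPKM), FLX 6 low in Ndufs6 (102 FPKM), and FLX 5 high in Sdha (185 FPKM) and Cox5a (134 FPKM).

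In PBS 6, outside the main comparisons, Cox6b2 stood at 16.97 FPKM, against 3.53 to 6.96 in the other 17 mice, while 70 of the 82 coding members had their lowest value of the 6 PBS mice there.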

How the results depend on the processing

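Leaving out 1 mouse at a time gave 0 to 1 members called in PBS against Ctrl, 0 to 4 in FLX against PBS and 0 to 56 in FLX against Ctrl, the highest each time without Ctrl 3. The median log2 fold changes then ran from -0.05 to 0.09, from -0.30 to -0.22 and from -0.31 to -0.17. Over the other alternatives they ran from -0.12 to 0.13, from -0.27 to -0.16 and from -0.32 to -0.06, so the sign of the first is not settled. Calls in PBS against Ctrl numbered 1 with DESeq2 and 2 without Ctrl 3 but with all 6 PBS mice. They numbered 3 with the length trend removed (2.95% of all genes higher) and 4 with Ctrl 3 also left out (3.41% higher). No share over all genes is given for DESeq2 or for the fit without Ctrl 3 but with all 6 PBS mice, so those counts are descriptions. Calls in FLX against PBS numbered 2 with DESeq2 and 1 without Ctrl 3 but with all 6 PBS mice. They numbered 4 with the length trend removed and Ctrl 3 left out (0.707% of all genes lower). They numbered 0 with upper-quartile, RLE or library-total scaling, no filter, or limma on FPKM at each pseudocount (0.01, 0.1, 1) or with a mean FPKM of at least 1. They were also 0 with all 6 PBS mice, FLX 1 and 2 only, or the 2 groups alone. Calls in FLX against Ctrl numbered 3 with DESeq2, 17 with the length trend removed and Ctrl 3 left out, 35 without Ctrl 3 but with all 6 PBS mice, and 0 with no filter, all 6 PBS mice, FLX 1 and 2 only or the length trend removed. The fit with a replicate block called 0, 0 and 0; of 16 same-numbered pairs, 2 had a correlation over 0.1, so the numbers were not taken to pair the mice. The cause of these changes was not tested. Alternatives on length and those combining Ctrl 3 with another choice were chosen after seeing the data. FPKM and library totals moved the median of all genes in FLX against PBS to 0.08 from -0.00267.

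Of single values, Uqcrb in FLX against Ctrl reversed to 0.019 with the length trend removed and Ctrl 3 left out. Leaving out single mice reversed Atp5l-ps2 (-0.55 to 0.042 in PBS against Ctrl and -0.24 to 0.41 in FLX against PBS), Cox6a2 (-0.14 to 0.36 in FLX against PBS), Cox7a1 (-0.11 to 0.40 in FLX against Ctrl) and Cox8b (-1.88 to 1.34 in FLX against PBS), each low or variable.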
